A study of Mus musculus with 48 samples.

Results

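H19, Mest, Peg3, Peg10, Grb10, Cdkn1c, Plagl1, Meg3, Rian and Ndn are imprinted genes with known roles in growth. They were taken by name from a list that was chosen with earlier results of these data known. All 10 were found among the 55450 genes of both count tables and all 10 passed the low-count filter in every comparison. They were read in 48 RNA-seq libraries of cells that were differentiated into adipocytes. Preadipocytes from the inguinal white fat of mice 8 to 12 weeks old were sampled at days 0, 3, 6 and 9, and mouse embryonic fibroblasts (MEFs) from embryos at E13.5 at days 0, 4, 8 and 12. Each cell type and day was represented by 3 wild type (WT) and 3 double knockout (DKO) libraries, all C57BL/6, and DKO cells carried null alleles of both Hmgn1 and Hmgn2, which encode nucleosome-binding proteins. Day 0 cells were confluent and had not received the inducing medium of insulin, dexamethasone, IBMX, T3 and rosiglitazone, which all later groups received. By the methods, a maintenance medium of insulin and T3 replaced it after 4 days in preadipocytes and after 8 days in MEFs. Preadipocytes of days 6 and 9 and MEFs of day 12 thus followed the change of medium, and day and medium cannot be told apart. The null alleles were constitutive, so the difference between DKO and WT at any day includes development before the culture. The study used these libraries to ask how loss of both proteins alters adipocyte differentiation.

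An imprinted gene is transcribed mainly from 1 parental copy, because a control region nearby was methylated in the egg or the sperm. Paternally expressed members such as Mest, Peg3, Peg10, Plagl1 and Ndn are often linked to growth or to survival of progenitors, and maternally expressed members such as H19, Grb10 and Cdkn1c often restrain growth. Many are high in the embryo, fall after birth and remain in progenitor cells. All animals were of 1 inbred strain, so the counts give the sum of both parental copies, and loss of imprinting cannot be told apart from a change in the active copy.

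The genes lie on chromosomes 6, 7, 10, 11 and 12, and positions are given on mm10 with GENCODE M21. H19 (chr7:142575529-142578143, minus strand) makes a noncoding RNA and lies beside Igf2, the gene of a fetal growth factor. Cdkn1c (chr7:143458339-143461050, minus) encodes the cyclin-dependent kinase inhibitor p57, Peg3 (chr7:6703892-6730431, minus) a zinc finger protein and Ndn (chr7:62346569-62350262, plus) necdin, a MAGE family protein of cells that have left the cycle. Mest (chr6:30723547-30748465, plus) encodes a hydrolase-like protein, and Peg10 (chr6:4747306-4760517, plus) a protein derived from a retrotransposon. Grb10 (chr11:11930508-12038683, minus) encodes an adaptor that dampens insulin and IGF1 receptor signalling, and Plagl1 (chr10:13060504-13131694, plus) a zinc finger transcription factor, also called Zac1. Meg3 (chr12:109541001-109571726, plus) and Rian (chr12:109603940-109661716, plus) are noncoding RNAs of the cluster that also holds Dlk1. Exons of Mest overlap those of Copg2 on the opposite strand, and the strand setting of the counting is not given in the sources used here, so reads of that overlap cannot be assigned with certainty. Exons of H19, Cdkn1c, Plagl1 and Meg3 overlap predicted genes on the opposite strand, with the same limit.

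Several members also carry microRNAs, and RefSeq (GRCm38.p6) places 13 mature microRNAs on the same strand within H19, Mest, Meg3 and Rian. No seed was shared between them. The 4 mature forms of H19 and Mest are shown because, of the 4 genes that carry microRNAs, these differed most between the cell types below, with the seed (bases 2 to 8) in capitals. The microRNAs themselves were not measured in these libraries.
miR-675-5p, in an exon of H19: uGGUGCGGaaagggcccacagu
miR-675-3p, in an exon of H19: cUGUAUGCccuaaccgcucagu
miR-335-5p, outside the exons of Mest: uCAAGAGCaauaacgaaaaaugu
miR-335-3p, outside the exons of Mest: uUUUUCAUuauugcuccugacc

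Promoter windows of 300 bases (250 before the start site and 50 from it on) were found in RefSeq for 7 of the 10 members, 11 windows in all. The hexamer TGCCGC, which the imprinting factor ZFP57 binds when its CG is methylated, was searched on both strands (GCGGCA on the other), with overlapping matches of the strands counted each. It was present in 5 of the 11 windows, of Mest, Grb10, Plagl1 and Meg3, and in 11.6% of 32851 windows of all genes. The 2 windows of Mest that held it overlap almost fully and count as separate windows only by their start site. The windows of Mest and Plagl1 are shown because both genes differed strongly between the cell types below, with the hexamer in capitals.
Mest, chr6:30737800-30738099, plus strand: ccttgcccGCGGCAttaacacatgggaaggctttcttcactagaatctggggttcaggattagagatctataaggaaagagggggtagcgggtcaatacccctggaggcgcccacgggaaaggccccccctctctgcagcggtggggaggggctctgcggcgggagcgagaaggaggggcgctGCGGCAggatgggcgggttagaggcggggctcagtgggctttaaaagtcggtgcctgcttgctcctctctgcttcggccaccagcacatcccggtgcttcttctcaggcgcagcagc
Plagl1, chr10:13090582-13090881, plus strand: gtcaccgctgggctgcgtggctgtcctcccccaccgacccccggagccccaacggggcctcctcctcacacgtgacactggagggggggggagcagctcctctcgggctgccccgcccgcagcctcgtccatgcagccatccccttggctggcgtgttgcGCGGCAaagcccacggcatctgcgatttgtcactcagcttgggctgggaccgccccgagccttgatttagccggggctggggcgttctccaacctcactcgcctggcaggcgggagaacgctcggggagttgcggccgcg
The Mest window held 2 hexamers and 17 CG pairs, and the Plagl1 window 1 hexamer and 26 CG pairs. A match shows only that these letters are present, since binding and methylation were not measured.

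Library totals ran from 19809397 to 36006696 counts in preadipocytes and from 18962483 to 33083213 in MEFs. Hmgn2 was at most 0.357 CPM (the TMM-scaled share of a library's counts) in DKO libraries and between 34.7 and 188 CPM in WT libraries. Hmgn1 kept 64.6 to 107 CPM in DKO against 82.3 to 206 CPM in WT, and the groups overlapped at preadipocyte day 9. The counts do not show which exons these Hmgn1 reads come from, so they are no check of the deleted part. The female transcript Xist was at most 0.535 CPM in the 24 preadipocyte libraries and at least 1140 CPM in the 24 MEF libraries, while Y-linked Ddx3y was at least 99.8 CPM in the former and 0 in the latter. Cell type, sex and count table therefore cannot be told apart. The labelled cells carried their defining markers, with 10 of 10 fibroblast and progenitor markers over 1 CPM at day 0, and a list of 12 adipocyte genes summed to 41.9 to 76.6 CPM in WT at day 0 and to 10600 CPM or more in WT at days 6, 9 and 12. Macrophage markers were also present. Counts of replicates differed beyond sampling noise in each pair, where the chi-square divided by its degrees of freedom reached 168. It was 2.16 between replicates 1 and 3 of WT MEFs at day 8 and 2.18 to 3.58 among the 3 WT MEF libraries of day 12. Among the 3 DKO MEF libraries of day 12 it was 3.01 to 12.6. The WT side of the day 12 tests thus rests on libraries that differed little more than sampling noise. Nothing in the labels says whether replicates were separate cultures or animals, and p-values then measure only the spread between these libraries, which may be technical. In bulk libraries, fewer cells of a type and less RNA per cell cannot be told apart.

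The largest differences in the list lay between the cell types. At day 0 8 of the 10 genes were lower in WT preadipocytes than in WT MEFs, where 38.6% of 15726 genes were called and 19.9% were called lower. Genes were called at an adjusted p below 0.05 in edgeR's quasi-likelihood test together with a change of 1.5-fold or more. The median log2 fold change was -1.83 for the 10 genes and -0.02 for all genes.

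H19 showed the widest gap. It stood at 13, 10.4 and 17 CPM in the 3 WT preadipocyte libraries and at 5270, 4090 and 5480 CPM in WT MEFs, 362-fold lower in preadipocytes (log2 fold change -8.50 ± 0.25 SE, edgeR adjusted p = 7.97e-07). Plagl1 was at 9.07, 14.9 and 18.9 CPM against 826, 635 and 834 CPM, 52.8-fold lower. Cdkn1c was at 2.67, 1.59 and 9.86 CPM against 273, 114 and 276 CPM, 46.9-fold lower, with replicate 3 of the preadipocytes well above the other two. Mest was at 2.81, 3.36 and 2.94 CPM against 86.2, 94.1 and 88.1 CPM, 29-fold lower. These 4 genes had the widest gaps of the 10, each 29-fold or more. Marker lists moved with the cell type. The 6 macrophage genes summed to 131 to 484 CPM in WT preadipocytes and 6720 to 8600 CPM in WT MEFs at day 0. The 5 smooth muscle genes went the other way, at 5220 to 6000 and 706 to 1120 CPM, as did the 6 skeletal muscle genes, at 94.5 to 115 and 1.21 to 2.34 CPM, of which 1 was over 1 CPM. Their part in the result was not tested.

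The other called genes differed by less. Meg3 was 4.06-fold, Peg3 3.12-fold, Grb10 2.26-fold and Rian 2.03-fold lower in preadipocytes. The call of Peg3 (adjusted p = 0.0185) was lost without the low-count filter and when preadipocyte replicate 2 or MEF replicate 3 was left out, and its preadipocyte libraries ranged from 135 to 385 CPM. Ndn was at 65.8 to 71.9 CPM against 78.4 to 92.2 CPM, a difference that passed the adjusted p (0.00913) but not the fold. Peg10 was at 14.9 to 20.7 CPM against 13.6 to 24.1 CPM, and the groups overlapped.

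Per kilobase of exon, the order of the genes was not the same in the 2 cell types. Length was the union of all annotated exons of a gene, so the order within a cell type also depends on the annotation. In WT MEFs at day 0 H19 led with 2010 ± 305 CPM per kb (SD, n = 3), followed by Cdkn1c (108 ± 45.4), Plagl1 (97.8 ± 14.5), Meg3 (94.0 ± 2.0) and Grb10 (90.3 ± 10.4), 4 genes that did not differ beyond their spread. Peg3 (54.8 ± 8.03) and Rian (53.0 ± 0.932) came next, then Ndn (23.6 ± 2.07) and Mest (22.7 ± 1.04), and Peg10 was lowest at 2.61 ± 0.876. In WT preadipocytes Grb10 led with 39.3 ± 9.43 CPM per kb, followed by Rian (25.7 ± 1.39), Meg3 (22.8 ± 2.05), Ndn (18.7 ± 0.836) and Peg3 (17.3 ± 10.2). H19 was at 5.45 ± 1.36, Peg10 at 2.77 ± 0.475, Cdkn1c at 2.31 ± 2.21, Plagl1 at 1.83 ± 0.631 and Mest at 0.768 ± 0.0733. The plot of levels per length shows the 4 wide gaps beside the overlap of Peg10.

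**Figure D1:**
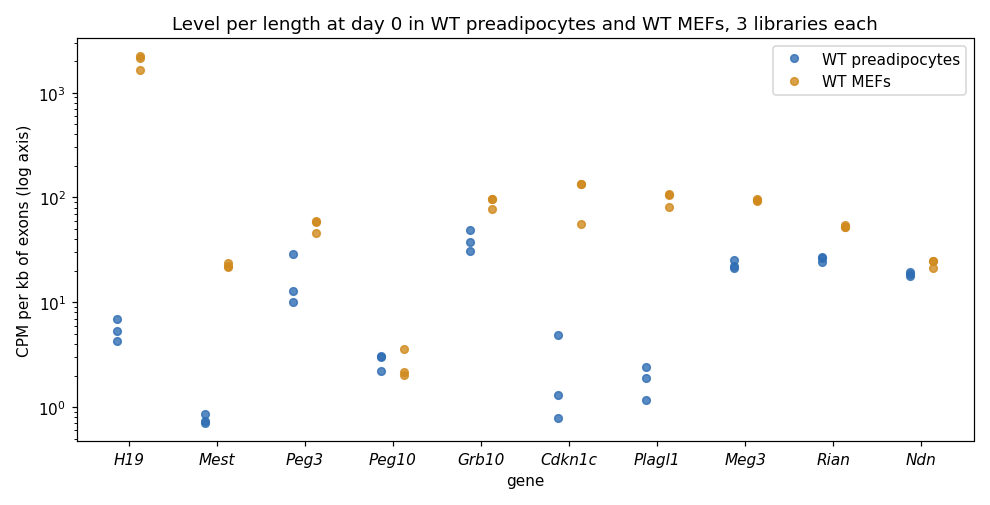
Level of each gene at day 0 in CPM per kilobase of exon (log axis), with 1 point for each of 3 WT preadipocyte and 3 WT MEF libraries. H19, Mest, Cdkn1c and Plagl1 are 29-fold or more apart between the cell types, while the points of Peg10 overlap.

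During preadipocyte differentiation the list split into genes that rose and genes that fell. In WT cells 7 of the 10 genes were called at day 3 against day 0 (24.7% of 16188 genes), 6 at day 6 (53.1%) and 5 at day 9 (52.7%). In DKO cells the counts were 5 (27% of 16138 genes), 6 (57.4%) and 7 (55.6%). The shares called at days 6 and 9 were close to those of all genes.

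H19 and Peg10 rose in WT cells at all 3 later days. H19 rose from 10.4 to 17 CPM at day 0 to 60.2, 96.8 and 223 CPM at day 3, 9.39-fold, and stood at 67.1 to 75.6 CPM at day 6 and at 39.7 to 40.8 CPM at day 9. In DKO cells H19 was called only at day 3, at 97.5, 203 and 84.3 CPM against 17.5, 56.1 and 29.4 CPM at day 0, and that call was lost without DKO day 0 replicate 1 or 3 or without DKO day 3 replicate 2. At day 9 the DKO libraries stood at 14.4, 32.4 and 7.35 CPM, within or below their day 0 range. Peg10 rose from 14.9 to 20.7 CPM in WT day 0 to 50 to 118 CPM at day 3 (4.72-fold) and from 25.2 to 33.8 CPM to 56.8 to 108 CPM in DKO (2.88-fold), and was called at every later day in both genotypes.

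Mest rose to a maximum at day 6 in WT, at 19.8, 8.48 and 8.25 CPM against 2.81 to 3.36 CPM at day 0 (4-fold, adjusted p = 0.00161), and was not called at day 9 in either genotype. Its call at day 3 in WT (adjusted p = 0.0428) and its calls at days 3 and 6 in DKO (0.0289 and 0.0326) were each lost without several single libraries. Cdkn1c and Plagl1 were called at day 3 in WT only, 8.35-fold and 3.54-fold higher, while DKO gave log2 fold changes of 1.87 ± 0.89 and 0.49 ± 0.40 (SE). Cdkn1c at day 3 ran from 13 to 85 CPM in WT and from 6.07 to 76.3 CPM in DKO, so single libraries of either genotype covered nearly the same range.

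Meg3 and Rian, the noncoding RNAs of the Dlk1 cluster, fell together. Meg3 went from 403, 454 and 383 CPM at day 0 in WT to 176, 133 and 136 CPM at day 3 and 68.6, 38.3 and 31.5 CPM at day 6, 9-fold lower, and stood at 81.8 to 158 CPM at day 9. Rian went from 479, 440 and 488 CPM to 72.9, 36.2 and 38.8 CPM at day 6, 9.54-fold lower. In DKO cells the falls to day 6 were 12.1-fold for Meg3 and 14-fold for Rian. Both genes were called at all 3 later days in both genotypes, although the call of Rian at day 3 in WT was lost without WT day 3 replicate 2 or 3.

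Ndn was not called at day 3 and then fell, from 65.8 to 71.9 CPM at day 0 to 20.9 to 25.9 CPM at day 6 in WT (3.01-fold) and from 72.9 to 79.2 CPM to 10.8 to 17.5 CPM in DKO (5.24-fold). Grb10 and Peg3 changed less. Grb10 fell 1.75-fold at day 6 and 1.57-fold at day 9 in DKO, the latter not without DKO day 0 replicate 2 or 3, and in WT its fold of 1.47 at day 6 stayed under the threshold. Peg3 was called only in DKO at day 9 (2.61-fold lower), with libraries that overlapped and a call that was lost without DKO day 0 replicate 3 or DKO day 9 replicate 2 or 3, and Plagl1 fell 2.31-fold in the same comparison, lost without DKO day 0 replicate 3 or DKO day 9 replicate 3. Without DKO day 0 replicate 3, 4 rather than 7 of the genes were called at DKO day 9. A call in 1 genotype and not in the other does not show that the genotypes differ, and that difference was tested for days 6 and 9 below but not for day 3. Marker lists moved with these courses. In WT the smooth muscle genes summed to 5220 to 6000 CPM at day 0, 882 to 1460 CPM at day 3 and 51.9 to 242 CPM at day 6. The fibroblast and progenitor markers went from 31300 to 33600 CPM at day 0 to 13400 to 16300 CPM at day 6, and the macrophage markers from 131 to 484 CPM to 6890 to 11500 CPM. Dcn, of the fibroblast and progenitor list, did not follow its sum, at 589 to 1250 CPM and 748 to 916 CPM. The part of these lists was not tested.

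**Figure D2:**
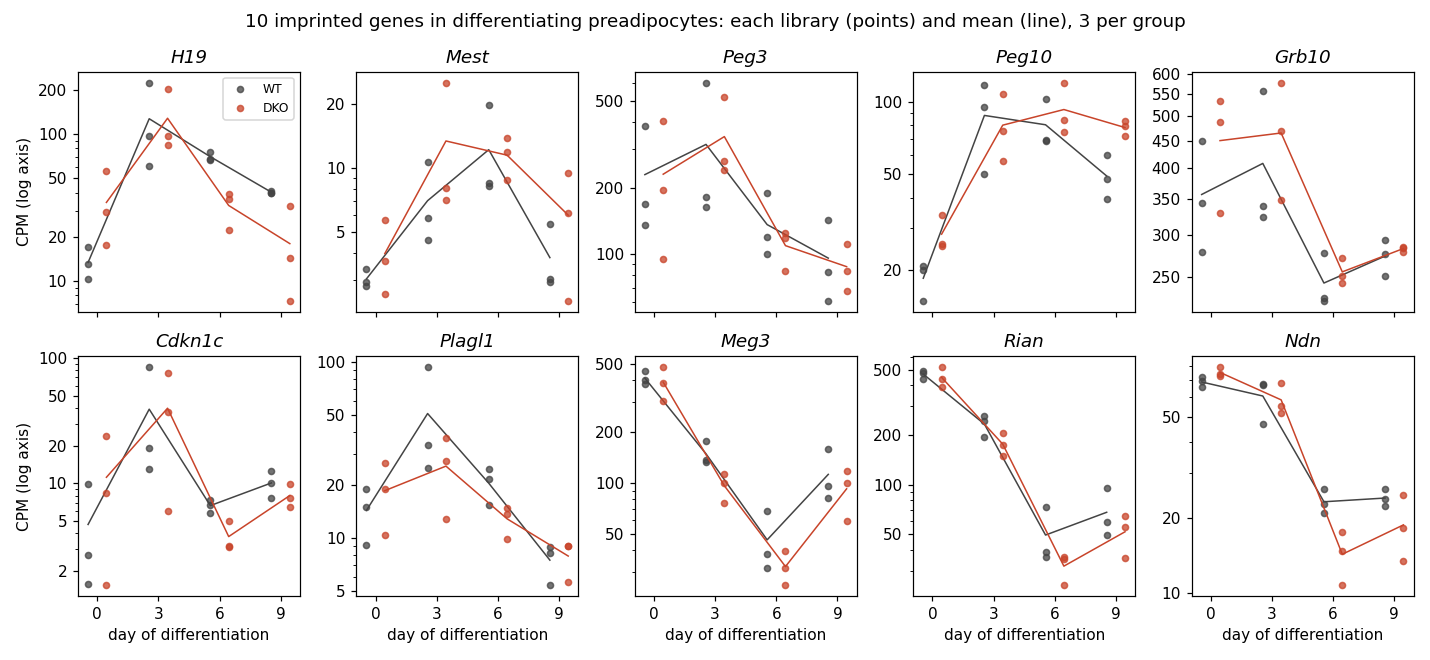
CPM (log axis, scaled to each gene) of the 10 genes in preadipocytes by day, with 1 point for each library (3 WT in grey and 3 DKO in red per day) and lines through the means. Meg3, Rian and Ndn fall by day 6, Peg10 rises by day 3, and at days 6 and 9 the DKO points of H19 lie below all WT points.

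In MEFs fewer of the genes were called than in preadipocytes, and none at day 12. In WT MEFs 5 of the 10 genes were called at day 4 (33.2% of 16359 genes), 3 at day 8 (29.6%) and 0 at day 12 (26.3%). In DKO MEFs 4 were called at day 4 (26.1% of 16231 genes), 3 at day 8 (27.1%) and 0 at day 12 (25.6%). At day 12 the unadjusted p of edgeR was under 0.05 for none of the 10 genes in WT and for H19 and Grb10 in DKO. In DKO 1 of these passed the adjusted p of edgeR (0.0197) but not the fold threshold. Other fits called up to 3 genes in DKO. The fit of each course shared 1 estimate of spread over all its days. In WT, H19, Cdkn1c and Ndn stood at day 12 within their day 0 range, and Peg3 overlapped it. Meg3 was below it, at 1150 to 1180 CPM against 1660 to 1740 CPM. Rian likewise stood at 598 to 628 CPM against 955 to 986 CPM. Grb10 and Plagl1 also lay below their day 0 libraries, and Mest and Peg10 above. The share of all genes whose libraries stood apart in this way is not given here, so these positions are only a description.

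Mest had the clearest course. It stood at 86.2, 94.1 and 88.1 CPM in WT at day 0, at 353, 193 and 183 CPM at day 4, at 570, 299 and 589 CPM at day 8 (5.51-fold) and at 119, 122 and 117 CPM at day 12. The DKO libraries followed the same course, with 456, 396 and 332 CPM at day 8 against 102, 42.4 and 74.9 CPM at day 0 (5.56-fold). Peg10 rose 3.68-fold in WT and 2.81-fold in DKO at day 8, and 2.26-fold and 3.32-fold at day 4, though the WT call at day 4 was lost without WT day 0 replicate 1 or 3 or without WT day 4 replicate 1. H19 rose at day 8, to 10200, 6270 and 10900 CPM in WT (1.87-fold, adjusted p = 0.0459, lost without any 1 of 5 libraries) and to 7640, 7230 and 4800 CPM in DKO (1.7-fold, adjusted p = 0.0205, lost without any 1 of 3).

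Meg3 and Ndn fell at day 4 in both genotypes, Meg3 by 3.43-fold in WT and 2.66-fold in DKO and Ndn by 1.94-fold and 1.56-fold. The DKO calls were the weaker, since the Meg3 libraries of the 2 days overlapped and its call was lost without any 1 of 4 libraries and that of Ndn without DKO day 0 replicate 3. Rian fell 2.66-fold at day 4 in WT, and its DKO value of -1.01 ± 0.38 (log2, SE) did not pass (adjusted p = 0.0572). None of the 3 was called at day 8. Without WT day 4 replicate 1, in which all 10 genes were highest of the 3 libraries, 8 rather than 5 of the genes were called at WT day 4, and without DKO day 0 replicate 3, 2 rather than 4 were called at DKO day 4. From day 0 to day 4 in WT the fibroblast and progenitor markers went from 30800 to 35600 CPM to 6530 to 13800 CPM, the smooth muscle genes from 706 to 1120 CPM to 115 to 306 CPM and the macrophage markers from 6720 to 8600 CPM to 4360 to 5430 CPM. The adipocyte genes went from 70.6 to 76.6 CPM to 403 to 2410 CPM. The part of these lists in the result was not tested.

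**Figure D3:**
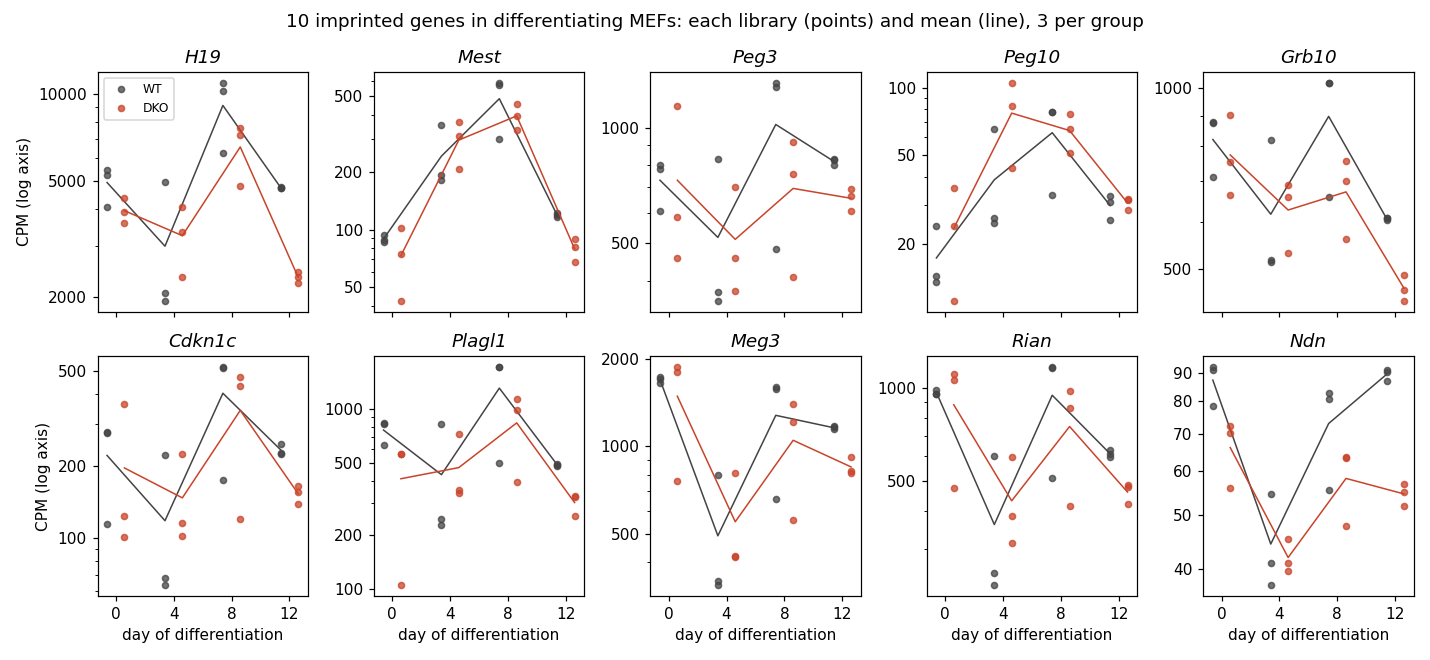
CPM (log axis, scaled to each gene) of the 10 genes in MEFs by day, with 1 point for each library (3 WT in grey and 3 DKO in red per day) and lines through the means. Mest peaks at day 8, libraries of days 0, 4 and 8 are widely spread, and at day 12 the DKO points lie below the WT points for every gene but Peg10.

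Loss of HMGN1 and HMGN2 left the list without a called gene at 6 of 8 points of the 2 courses. At day 0 of preadipocytes 0 of 10 genes were called (0.218% of 15123 genes), at day 3 0 (0.337% of 15119), at day 9 0 (1.24% of 14700), and in MEFs 0 at day 0 (0.102% of 15671), day 4 (0.0905% of 15475) and day 8 (0.0595% of 15117). The smallest adjusted p among the 10 genes was 0.441, 0.224, 0.0657, 0.524, 0.827 and 0.65 in that order. Before adjustment p was under 0.05 for H19 and Peg10 at preadipocyte days 0 and 9, for Meg3 and Rian at day 3 and for Ndn in MEFs at day 0, and DESeq2 called Meg3 at day 3 and Peg10 at day 9, where it called 2.7% and 5.63% of all genes. Over all genes the share with an unadjusted p under 0.05 was 7.86%, 12.2% and 27.1% at preadipocyte days 0, 3 and 9 and 9.28%, 5.91% and 8.57% at MEF days 0, 4 and 8.

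At day 6 of preadipocytes 3 of the 10 genes were lower in DKO, where 11.6% of 14694 genes were called and 6.53% were called lower. The split of all calls was 739 higher and 960 lower, and 502 and 1244 when libraries were scaled by total counts only. H19 was at 75.6, 67.1 and 67.5 CPM in WT and at 39.2, 36.4 and 22.4 CPM in DKO, a log2 fold change of -1.11 ± 0.20 (SE, edgeR adjusted p = 0.0123). Ndn was at 22.6, 20.9 and 25.9 CPM in WT and at 14.7, 17.5 and 10.8 CPM in DKO (-0.70 ± 0.17, adjusted p = 0.0268). Cdkn1c was at 6.74, 7.39 and 5.85 CPM in WT and at 4.98, 3.13 and 3.20 CPM in DKO (-0.82 ± 0.21, adjusted p = 0.0293), from counts of 54 to 175 per library. In all 3 genes every DKO library was below every WT library.

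Plagl1 was also lower in every DKO library, at 13.7, 14.7 and 9.85 CPM against 24.4, 15.4 and 21.5 CPM, but did not pass (adjusted p = 0.0551). It passed in 3 of 12 alternatives, with DESeq2 (0.013), total-count scaling (0.0408) and without WT day 6 replicate 2 (0.0187). Rian likewise did not overlap and did not pass (-0.64 ± 0.32, adjusted p = 0.206). In all, 5 of the 10 genes had every DKO library below WT, against 20.2% of all genes. Mest, Peg3, Peg10, Grb10 and Meg3 overlapped, with log2 fold changes between -0.53 and 0.21. The median was -0.59 for the 10 genes and -0.01 for all genes.

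The day 6 calls rested on few libraries. Leaving out WT day 6 replicate 3 left 0 calls, and leaving out WT replicate 1 or DKO replicate 3 left 1. The call of Cdkn1c was lost without any 1 of 5 libraries and that of Ndn without any 1 of 4. The log2 fold change of H19 stayed between -1.26 and -0.90 in these fits, with adjusted p from 0.00943 to 0.0513. With 1 fit over all days only Ndn was called (adjusted p = 0.023), and H19 and Cdkn1c had adjusted p of 0.152 and 0.59. Other cell markers moved with the genotype at this day. The 6 macrophage markers, all over 1 CPM, summed to 6890 to 11500 CPM in WT and 2260 to 5390 CPM in DKO. The 10 fibroblast and progenitor markers summed to 13400 to 16300 CPM in WT and 4950 to 6630 CPM in DKO, the 12 cell cycle genes to 238 to 291 and 148 to 172 CPM, and the 12 adipocyte genes to 16900 to 21700 and 24800 to 30200 CPM. Not every gene followed its sum. Dcn, of the fibroblast and progenitor list, was at 916, 748 and 901 CPM in WT and 793, 725 and 765 CPM in DKO. Of the macrophage markers, Lyz2 (4590 to 7950 in WT and 1650 to 3370 CPM in DKO) made up most of the sum. Ptprc also did not overlap between the genotypes. Adgre1 (113 to 171 and 43.9 to 114 CPM), Csf1r (246 to 446 and 79.7 to 313 CPM) and Cd68 (137 to 238 and 68.5 to 141 CPM) overlapped. The part of these lists in the result was not tested.

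At day 9 H19 was at 40.8, 39.7 and 40 CPM in WT and at 14.4, 32.4 and 7.35 CPM in DKO. Every DKO library was below WT, as for 13.1% of all genes, yet the spread within DKO left an adjusted p of 0.175 for a log2 fold change of -1.18 ± 0.48. Without DKO replicate 2 the value was -1.92 with an adjusted p of 0.0138, and 2 of the 10 genes, H19 and Ndn, were called, as were 9.72% of all genes in that fit. Peg10 was higher in every DKO library, at 79.2, 83.1 and 72.3 CPM in DKO against 39.5, 47.6 and 60.4 CPM in WT (0.64 ± 0.15, adjusted p = 0.0657). Mest had a similar value with a wider error (0.64 ± 0.51, adjusted p = 0.465). The macrophage markers summed to 3100 to 6780 CPM in WT and 1420 to 3270 CPM in DKO at this day, the adipocyte genes to 22800 to 23400 and 28200 to 35300 CPM, and the fibroblast and progenitor markers to 15300 to 16400 and 5830 to 16000 CPM. Their part in the result was not tested. At day 0 H19 had the opposite sign, with 17.5, 56.1 and 29.4 CPM in DKO against 13, 10.4 and 17 CPM in WT (1.34 ± 0.45, adjusted p = 0.554), and every DKO library was above WT, as for 8.91% of all genes.

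The difference between DKO and WT was itself compared between days. For H19 it was lower at day 6 than at day 0 by 2.41 ± 0.54 on the log2 scale (edgeR adjusted p = 0.0406), the only 1 of the 10 genes called in a test that called 3.49% of 16236 genes. That call was lost in 11 of 16 alternatives, the replicate block among them (adjusted p = 0.0908). At day 9 against day 0 the value was -2.52 ± 0.72 and did not pass (adjusted p = 0.157), and 0 of the 10 genes were called (0.0555% of 16216). In MEFs 0 genes were called for day 8 (0 of 16374 genes, 859 with unadjusted p under 0.05) and 0 of the 10 for day 12 (1.42% of 16352), where H19 gave -0.65 ± 0.16 (adjusted p = 0.0637). Between preadipocytes and MEFs at day 0 the DKO effect differed for 0 of the 10 genes (0.0844% of 16581), with H19 at 1.65 ± 0.50 (adjusted p = 0.66). The day 6 and day 9 values share the same day 0 libraries.

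At day 12 of MEFs 9 of the 10 genes were lower in DKO at an adjusted p under 0.05 and any fold. Of all 15319 genes, 33% passed this p in either direction. With the fold threshold 3 genes were called, against 7.98% of all genes called and 4.05% called lower (601 higher and 621 lower, or 479 and 765 scaled by total counts only). H19 was at 4740, 4730 and 4780 CPM in WT and 2350, 2240 and 2440 CPM in DKO, a log2 fold change of -0.985 ± 0.045 (SE, adjusted p = 4.1e-10). Ndn was at 90.2, 91.2 and 86.9 CPM in WT and 55, 51.9 and 56.9 CPM in DKO (-0.68 ± 0.05, adjusted p = 3.02e-08). Plagl1 was at 484, 498 and 487 CPM in WT and 325, 254 and 328 CPM in DKO (-0.66 ± 0.09, adjusted p = 0.00118), and fell short of the fold threshold without DKO replicate 2. In each of the 3 genes the lowest WT library was above the highest DKO library.

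The other 6 genes with an adjusted p under 0.05 had smaller folds. Cdkn1c was at 225 to 246 CPM in WT against 138 to 165 CPM in DKO (1.49-fold), Mest at 117 to 122 against 67.7 to 89.1 CPM (1.47-fold), and Meg3 at 1150 to 1180 against 810 to 920 CPM (1.34-fold). Rian was 1.3-fold, Grb10 1.28-fold and Peg3 1.22-fold lower. Peg10 was at 25.7, 32.7 and 30.8 CPM in WT and at 28.4, 31.6 and 31.7 CPM in DKO, and its log2 fold change of 0.07 ± 0.08 did not pass (adjusted p = 0.592). Every DKO library was below every WT library in 9 of the 10 genes, against 27.1% of all genes, and the median log2 fold change was -0.49 for the 10 genes and 0.00 for all genes. Without DKO day 12 replicate 3, 5 genes were called, with Cdkn1c and Mest past the fold threshold.

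The precision of the day 12 test followed the spread of its libraries. The median coefficient of variation of the 10 genes was 2.18% in WT and 6.92% in DKO at day 12, against 4.89% and 6.84% over genes with at least 1 CPM, and 13.1% to 55.6% in the other MEF groups. When 1 fit shared its estimate of spread over all days, H19 had an adjusted p of 0.0829 and Plagl1 of 0.625, and Ndn alone was called (0.0259). Marker lists moved with the genotype here as well. The adipocyte genes summed to 10600 to 10900 CPM in WT and 16300 to 17600 CPM in DKO, the fibroblast and progenitor markers to 19500 to 20200 and 11200 to 12700 CPM, the macrophage markers to 4380 to 4420 and 2730 to 3160 CPM, and the cell cycle genes to 158 to 160 and 104 to 135 CPM. Their part in the result was not tested.

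**Figure D4:**
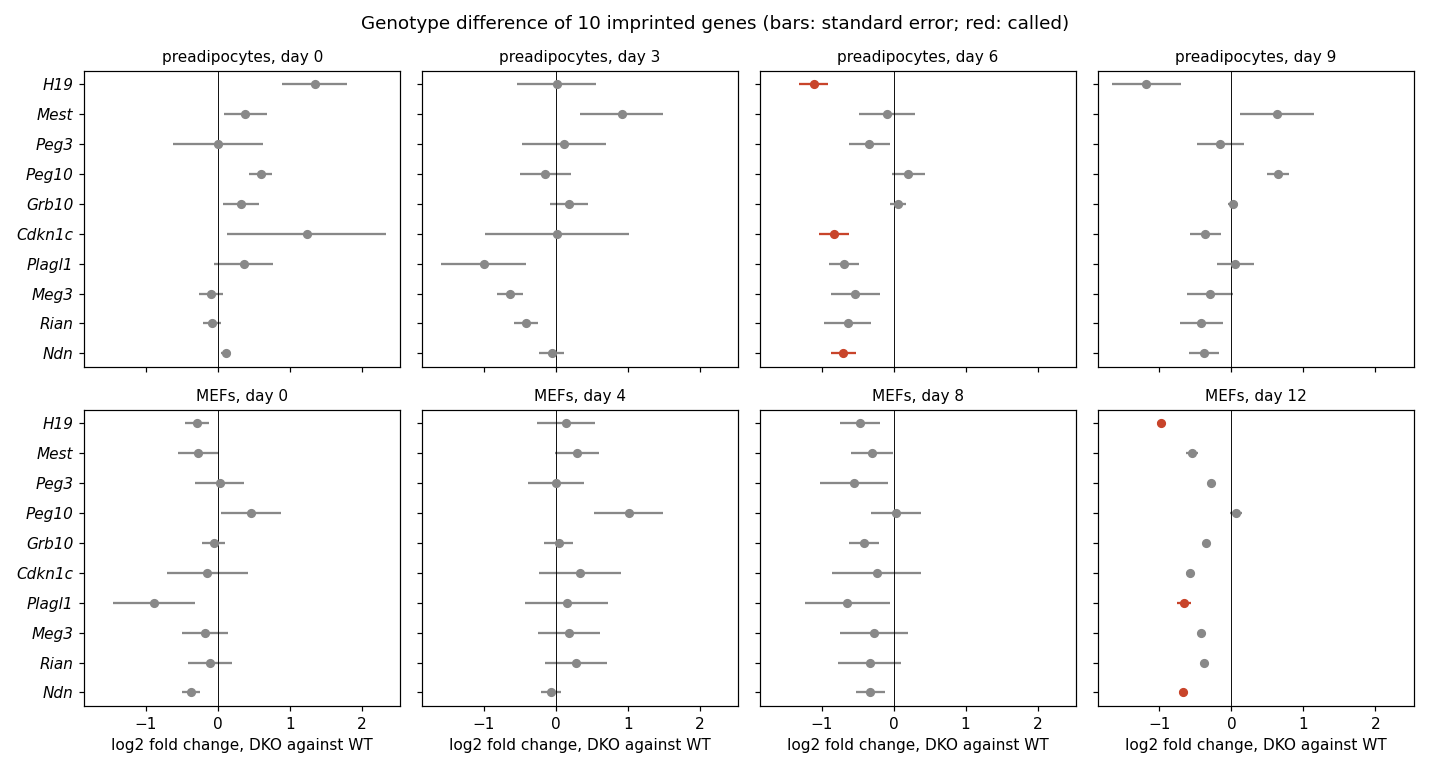
Log2 fold change of DKO against WT for the 10 genes at the 4 days of each cell type, with bars of 1 standard error and called genes in red. Only preadipocyte day 6 and MEF day 12 hold called genes, 3 each, with H19 and Ndn at both, and the bars are shortest at MEF day 12.

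In MEFs the 10 genes deviated from their group means together. In WT day 8 replicate 2 and in DKO day 8 replicate 3 all 10 genes were lowest of the 3 libraries, and in WT day 4 replicate 1 and DKO day 8 replicate 1 all 10 were highest. In DKO day 0 replicate 2, 8 of the 10 were lowest, and Plagl1 there was at 105 CPM against 564 and 562 CPM in the other replicates. The depth of the fall differed between genes. At WT day 8 the highest library exceeded the lowest 3.43-fold for Plagl1, 2.97-fold for Cdkn1c, 2.71-fold for Peg3 and 1.49-fold for Ndn. Marker lists moved with these libraries. At WT day 8 the macrophage markers summed to 4050, 7860 and 4020 CPM in replicates 1, 2 and 3 and the adipocyte genes to 4450, 810 and 4410 CPM. At DKO day 8 these lists stood at 2940, 4230 and 5880 CPM and at 8830, 6480 and 1170 CPM, and at WT day 4 at 4360, 5430 and 5080 CPM and at 2410, 405 and 403 CPM. The macrophage sum was the highest of its group in the 2 libraries of day 8 where all 10 genes were lowest, and the lowest of its group in the 2 libraries where all 10 were highest. The fibroblast and progenitor markers were lowest in the same 2 libraries of day 8, at 18100 and 15900 CPM. The adipocyte sum was lowest where all 10 genes were lowest and highest where all 10 were highest. In DKO day 0 replicate 2 the fibroblast and progenitor sum was again lowest (38700, 13300 and 19600 CPM), but the other sums went the other way. The macrophage sum was lowest there by a small margin (6160, 5920 and 6250 CPM) and the adipocyte sum highest (65.5, 116 and 93.8 CPM). Of the macrophage genes Lyz2 was highest in that library (4680, 5260 and 4380 CPM), while Adgre1, Csf1r, Cd68 and Ptprc were lowest. Of the macrophage genes, Csf1r did not follow the sum. It was at 167, 173 and 181 CPM at WT day 8 and 143, 168 and 132 CPM at DKO day 8. At WT day 4 it was highest in replicate 1, at 139 CPM, as was Adgre1 (138, 107 and 103 CPM), while Cd68 and Ptprc were lowest there. Lyz2 made up most of the macrophage sum, at 3490, 4950 and 4600 CPM at WT day 4. The part of these lists in the pattern was not tested. Over the 24 MEF libraries the deviations of all 45 pairs of genes correlated positively, with a median Pearson r of 0.836 and a range from 0.414 to 0.986, and in preadipocytes the median was 0.36 over 45 pairs. These pairs share libraries and their composition, so the values are a description. The 0 calls in MEFs at days 0, 4 and 8 were made across this spread, and leaving out any 1 library still gave 0.

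**Figure D5:**
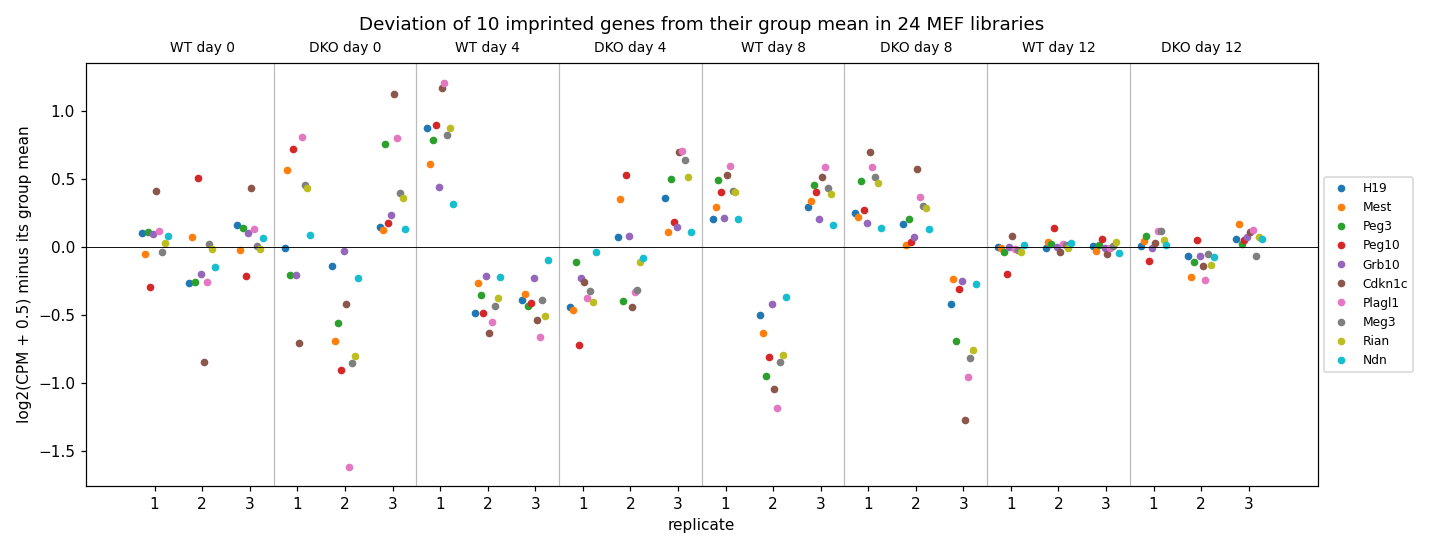
Deviation of each gene from its group mean, in log2(CPM + 0.5), in the 24 MEF libraries ordered by day, genotype and replicate. All 10 genes lie below 0 in WT day 8 replicate 2 and DKO day 8 replicate 3, and the points of day 12 lie close to 0.

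Other imprinted genes were described with a list of 56. At preadipocyte day 6, 40 of them were tested, 3 were higher and 1 lower in DKO (10% of the list, against 11.6% of all genes called), and their median log2 fold change was 0.02. Dlk1, a transmembrane inhibitor of adipocyte differentiation from the same cluster as Meg3 and Rian, was at 7.76, 5.86 and 7.79 CPM in DKO and at 4.03, 3.08 and 2.14 CPM in WT (1.20 ± 0.24, edgeR adjusted p = 0.0133). Herc3 and Ppp1r9a were higher by 0.65 and 0.87, and Nnat was lower by 1.59 on the log2 scale, from a level of 5.18 CPM or less. At MEF day 12, 45 were tested, 0 were higher and 5 lower, where 4.05% of all genes were called lower, with a median of -0.13. Igf2, the neighbour of H19, was at 2520, 2560 and 2550 CPM in WT and at 1230, 1160 and 1270 CPM in DKO (-1.02 ± 0.04, adjusted p = 2.35e-10).

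The remaining calls at MEF day 12 were Dlk1, at 666 to 721 CPM in WT and 360 to 386 CPM in DKO (-0.87 ± 0.05), Rtl1, a further gene of that cluster (-0.95 ± 0.25), Nnat (-0.94 ± 0.19) and Dcn (-0.62 ± 0.14), the last of which was named after its value was seen. Dlk1 thus had opposite signs in the 2 comparisons, at mean WT levels of 3.08 CPM in preadipocytes and 697 CPM in MEFs. Igf2 at preadipocyte day 6 was at 1.87 to 3.68 CPM in all 6 libraries and did not pass (0.35 ± 0.28). Igf2r, which clears IGF2 from the cell surface, was lower at MEF day 12 by 0.39 ± 0.05 (adjusted p = 8.38e-06), under the fold threshold. At the other 6 points 0 genes of this list were called.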

How the data were processed

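RNA-seq libraries were sequenced as paired reads. Per the labels and the methods of the study, the authors used Cutadapt 1.18 for trimming and STAR 2.7.0f for alignment (mm10), and deposited RSEM 1.3.0 expected counts per gene for each library, without normalization or pooling. The labels give poly(A) RNA and the methods a total RNA kit. All 55450 gene identifiers matched GENCODE M21. Counts were rounded to whole numbers, scaled by TMM and tested with the edgeR 4.0.16 quasi-likelihood test (robust, filterByExpr, R 4.3.3), with p-values adjusted by Benjamini-Hochberg over all genes tested. Genotypes were compared per day (6 libraries), and days against day 0 within genotype (12 libraries). Interactions used 12 libraries. CPM values and marker sums were scaled over all 48 libraries. The alternatives were DESeq2 1.42.0, total-count scaling, limma-voom 3.58.1 with quantile normalization, no filter, 1 fit over all days, a replicate block, no fold threshold and leaving out each library. The statistics were tested on simulated data. Same-numbered DKO preadipocyte libraries of days 0 and 3 deviated together (r from 0.439 to 0.564), which pairs them, and the replicate block left their comparison at 5 called members. Days 6 and 9 of preadipocytes paired likewise within each genotype (r from 0.141 to 0.481) but were not tested against each other. Named genes were all 10 members in every comparison, up to 4 other imprinted genes called per genotype comparison, and Igf2, Dlk1, Igf2r, Hmgn1 and Hmgn2. Members and lists were chosen with earlier results of these data known. Direction under the alternatives is given for members with an unadjusted p under 0.05 between genotypes.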

Additional observations from a re-analysis of the deposited data

Results flagged for a closer look

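The genotype difference of H19 in preadipocytes changed from day 0 to day 6, by -2.41 ± 0.54 on the log2 scale in a test of the difference itself (edgeR adjusted p = 0.0406). At day 0 the 3 DKO libraries were all above the 3 WT libraries (17.5, 56.1 and 29.4 against 13, 10.4 and 17 CPM), and at day 6 all below (39.2, 36.4 and 22.4 against 75.6, 67.1 and 67.5 CPM). The value kept its sign in all 16 alternatives and ran from -2.78 to -1.90 when single libraries were left out, with adjusted p from 0.019 to 0.103. The call was lost in 11 of the 16 alternatives. Marker lists differed between the genotypes at day 6 as given above, and their part in this value was not tested.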

How the results depend on the processing

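The signs of the called members held in every alternative. Of 80 member values between genotypes, 32 changed sign in at least 1 alternative, and none of these was larger than 0.34 on the log2 scale or 0.926 standard errors. Of the 59 calls between days or cell types, 45 held in every alternative. Counts of called members moved as follows. With DESeq2 they were 1 at preadipocyte days 3 and 9 between genotypes, 2 for DKO MEFs at day 12 against day 0, and 2, 1 and 1 for the interactions of preadipocyte days 6 and 9 and MEF day 12. DESeq2 and total-count scaling each gave 4 at preadipocyte day 6. With total-count scaling they were 5 at MEF day 12 between genotypes, 3 for DKO MEFs at day 12 against day 0, and 2 and 1 for the interactions of preadipocyte day 6 and MEF day 12. Limma-voom gave 5 and no fold threshold 9 at MEF day 12, and 1 fit over all days gave 1 at preadipocyte day 6 and 1 at MEF day 12. Without a filter counts were 3 for DKO preadipocytes at day 3, 2 for DKO MEFs at day 12 and 1 for the MEF day 12 interaction. With single libraries left out, counts between genotypes ran from 0 to 3 at preadipocyte day 6, 0 to 2 at day 9 and 2 to 5 at MEF day 12. They ran from 4 to 7 for DKO preadipocytes at day 9, 4 to 8 for WT MEFs at day 4, 2 to 5 for DKO MEFs at day 4 and 0 to 1 at day 12, and for interactions from 0 to 2 at preadipocyte days 6 and 9 and 0 to 1 at MEF day 12. The cause was not tested.

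Replicate numbers were not taken to pair the genotypes. Deviations of same-numbered WT and DKO libraries never correlated above 0.1 in all 3 pairs of a day, with values from -0.733 to 0.641. At preadipocyte day 3 the values were 0.436, 0.073 and 0.536, against at most 0.351 for pairs of unlike number. The replicate block gave 280 called genes at that day rather than 51, so whether these libraries were paired is not settled. With a replicate block 0 members were called in the preadipocyte day 6 interaction (H19 adjusted p = 0.0908), and Ndn at preadipocyte day 6 had an adjusted p of 0.0805. The block raised the count from 7 to 8 for DKO preadipocytes at day 9 and lowered it from 7 to 6 for WT at day 3 (Mest lost), and Peg10 lost its call in WT MEFs at day 4. Total-count scaling moved the median of all genes at preadipocyte day 6 from -0.01 to -0.11. Cdkn1c and Mest in preadipocytes rest on as few as 34 and 51 counts, and depth and spread limit what could be called for them.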

Other observations

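For each of the 10 genes, the genes with the most similar pattern were sought by Pearson r of log2(CPM + 0.5) over the 48 libraries, among 13913 genes with a mean of at least 1 CPM. The libraries form 2 cell types and 4 days each, so the points share these groups and r is given as a description. Meg3 was most like Mirg (r = 0.982), a further noncoding RNA of the same cluster, and Peg3 most like its neighbour Usp29 (0.944). H19 and Plagl1 were each other's closest gene (0.969), and H19 was next most like Zic1 (0.963) and Igf2 (0.959). Plagl1 was also among the closest to Cdkn1c (0.943), after Klf5 (0.961) and Boc (0.957). Ndn was most like Maged2 (0.958), another MAGE family gene, Rian like Mmp16 (0.961), Mest like Zfp185 (0.955) and Grb10 like Lrrn3 (0.941). Peg10 had the weakest match, Grhl1 (0.84).

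In preadipocytes of days 0 and 3, replicate 3 held the highest of 3 values for most of the 10 genes in both genotypes, for 8 and 6 at day 0 in WT and DKO and for 8 and 9 at day 3. Cdkn1c at day 0 was at 9.86 CPM in that WT replicate against 2.67 and 1.59 CPM, and at 23.7 CPM in that DKO replicate against 1.55 and 8.37 CPM. The macrophage markers were lowest in replicate 3 at day 0, at 484, 292 and 131 CPM in WT and 341, 225 and 33.4 CPM in DKO, and at day 3 stood at 64.7, 239 and 79 CPM and at 191, 208 and 51.2 CPM. Their part in this pattern was not tested. At days 6 and 9 replicate 1 was highest for 7 and 8 genes in WT. In DKO replicate 1 was highest for 7 genes at day 6 and replicate 2 for 7 genes at day 9.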
